A study of Homo sapiens with 8 samples.

Results

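The genes that drive mitosis and chromosome segregation were followed in 2 populations derived from H460 cells, an established human non-small cell lung cancer line. The list holds 58 genes: mitotic kinases and cyclins, spindle checkpoint and kinetochore proteins, kinesins, condensin subunits and proteins of cytokinesis. Probes of the array were assigned to a gene by the accession that the array design gives them, and 57 of the 58 genes had a probe that was tested, among 12374 gene symbols tested in all. No accession of UBE2C in the gene table used here was found on the array, and that gene is without a value. The 57 genes had 69 probes, of which 67 were tested, and each gene was read from its brightest tested probe.

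Dual-color arrays of the whole human genome, 8 in number, carried RNA of H460C or H460R cells in 1 channel and RNA of H460 cells in the other. Parental H460 and H460R cells were cultured in RPMI with fetal serum. H460C are cancer stem cells (CSCs) enriched by culturing H460 cells without attachment, in a defined DMEM/F12 medium with N2 supplement, EGF and basic FGF. H460R are cells exposed during 72 h to cisplatin at 0.5 µg/mL and afterwards kept in medium without the drug. H460C therefore differed from both other populations in medium and attachment as well, and these differences and the stem-like state cannot be told apart. The labels give 2 RNA samples of H460C and 2 of H460R, every sample on a pair of arrays in opposite dyes, so that 4 arrays measured each population. The labels name 1 H460 RNA sample, so a ratio tested against 0 leaves out the spread of the control. They do not say that replicates came from separate cultures, and p-values then measure only the spread between these samples, which may be technical. The arrays of H460C shared 1 slide and those of H460R another, and slide and cells cannot be told apart.

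Values are given on the log2 scale as the level in H460C or H460R relative to H460, so that 0 is no difference. Where values of single arrays are given, the array with the studied cells in Cy3 comes first and the one with Cy5 second. The members were well above background in all 16 array channels at the probe that was read, and none was saturated. Over all probes the 2 H460C samples differed by no more than the noise between hybridizations (correlation of their difference between dye orientations -0.01 across 24642 probes), so H460C is treated as 1 sample below and has no SD. The same correlation was 0.27 in H460R, across 25745 probes, and its values are means ± SD of 2 samples. The tests took both H460C samples. Of markers of the labelled cell type, KRT8, KRT18 and KRT19, keratins of epithelial cells, were well above background in 16 of 16 channels, and so were CD44, ALCAM and ABCG2. Detection in every channel does not by itself tell the populations apart, but the levels of some of these markers differed. ALCAM was at -0.23 in H460C and 1.32 in H460R, and CD44 at -0.72 and -0.14. KRT18 went the other way, at 0.13 and -0.71. No test of these marker differences is given here. EPCAM was well above background in 14 channels and CDH1 in 4. The ratios of EPCAM were 1.36 in H460C and -0.09 in H460R, also without a test here. PROM1, the surface protein CD133 used as a CSC marker, was not well above background in any channel.

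Entry into mitosis is driven by CDK1 with its A- and B-type cyclins. Transcription of these genes peaks in G2 and mitosis under MuvB complexes, B-MYB and FOXM1. Kinetochores then attach chromosomes to spindle microtubules, and the spindle checkpoint holds back the anaphase-promoting complex until all are attached. Activation of that complex by CDC20 then starts anaphase and exit. Because these transcripts are present mainly in dividing cells, they are used as a measure of proliferation in tumors. In bulk RNA, fewer cells in a stage of the cycle and less RNA per cell cannot be told apart.

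In H460C cells nearly all of the genes lay above the level of H460 cells. The median log2 ratio of the 57 genes was 1.10, or 2.14-fold, and 56 of them were above 0. The median over all 12374 symbols was 0.00, with 75% of symbols below 0.33 and 95% below 1.09, so that the typical mitosis gene lay at about the 95th percentile. A ratio over 1 was measured for 35 of the 57 genes and for 5.94% of all symbols. The genes ran from SPC25 at 1.87 to KIF22 at -0.42. On the single arrays, 55 of the 57 genes were above 0 on every H460C array that measured them, against 34.7% of all symbols. The exceptions were KIF22, which was below 0 on all 4 arrays, and ECT2, which lay on both sides.

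The tests differed in how they read this shift. Rank Products, the test of the study, ranks every gene by its ratio and calls only the extremes: it called 0.719% of all symbols higher and 0.541% lower in H460C at an FDR of 0.05, and 0 members in either direction. Its smallest called ratio was 2.25, above the highest member, and the smallest FDR of a member was 0.0910, for SPC25. At an unadjusted p under 0.05, Rank Products took 48 members as higher, against 10.9% of all symbols, and 0 as lower, against 10.6%. Its p-values and FDRs take the ranks of the H460C samples as independent. If those samples are 1 RNA, as they were counted above, the Rank Products values for H460C are too small. limma compares each ratio with a spread that is pooled over both populations and partly shared across probes. It also counts the H460C samples as 2. If they are 1 RNA, its standard errors and p-values tend to be too small as well, here and in the comparison of the populations below. With both samples, limma called 55 members higher, 1 lower (KIF22) and left 1 uncalled (ECT2). It also called 37.5% of all symbols higher and 35.5% lower in H460C, so a limma call by itself was common. With a minimum log2 ratio of 1, limma called 15 members higher, 26.3% of them, against 3.16% of all symbols.

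In H460R cells the same genes stood close to H460 cells. Their median was 0.27, or 1.20-fold, against 0.00 over all symbols, and 43 of 57 were above 0. Ratios over 1 were found for SPC25, INCENP and KIF14 only, 3 of 57 genes against 3.6% of all symbols. Rank Products called 0.55% of all symbols higher and 0.509% lower in H460R, and 0 members in either direction, with 6 members higher, against 9.33% of all symbols, and 0 lower, against 8.68%, at an unadjusted p under 0.05. limma called 34 members higher, 7 lower and left 16 uncalled, where it called 36% of all symbols higher and 33.6% lower. The 7 lower genes were CCNB2, NCAPD2, CDC20, KIF22, AURKA, CDC25C and CENPN. With median centring in place of loess only CCNB2 was still called lower, at -0.39, and NCAPD2 was at -0.29, CDC20 at -0.29, KIF22 at -0.23, CDC25C at -0.13, AURKA at -0.03 and CENPN at -0.01. The count also rested on the sample: without replicate 2 it was 21 higher and 7 lower, and without replicate 1 it was 39 higher and 3 lower. The median of the members was 0.16 in replicate 1 and 0.39 in replicate 2, and replicate 2 was the higher one for 55 of 57 members, against 52.5% of all symbols. Between the H460C samples the median difference was smaller, 0.10, with replicate 2 above replicate 1 for 53 of 57 members, against 48.3% of all symbols. The member medians of the H460C arrays were 0.96 and 1.22 in Cy5, and 1.12 (54 members) and 1.11 in Cy3. Over all probes the H460C samples were counted as 1, and the cause of the shift among the members was not tested.

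**Figure D1:**
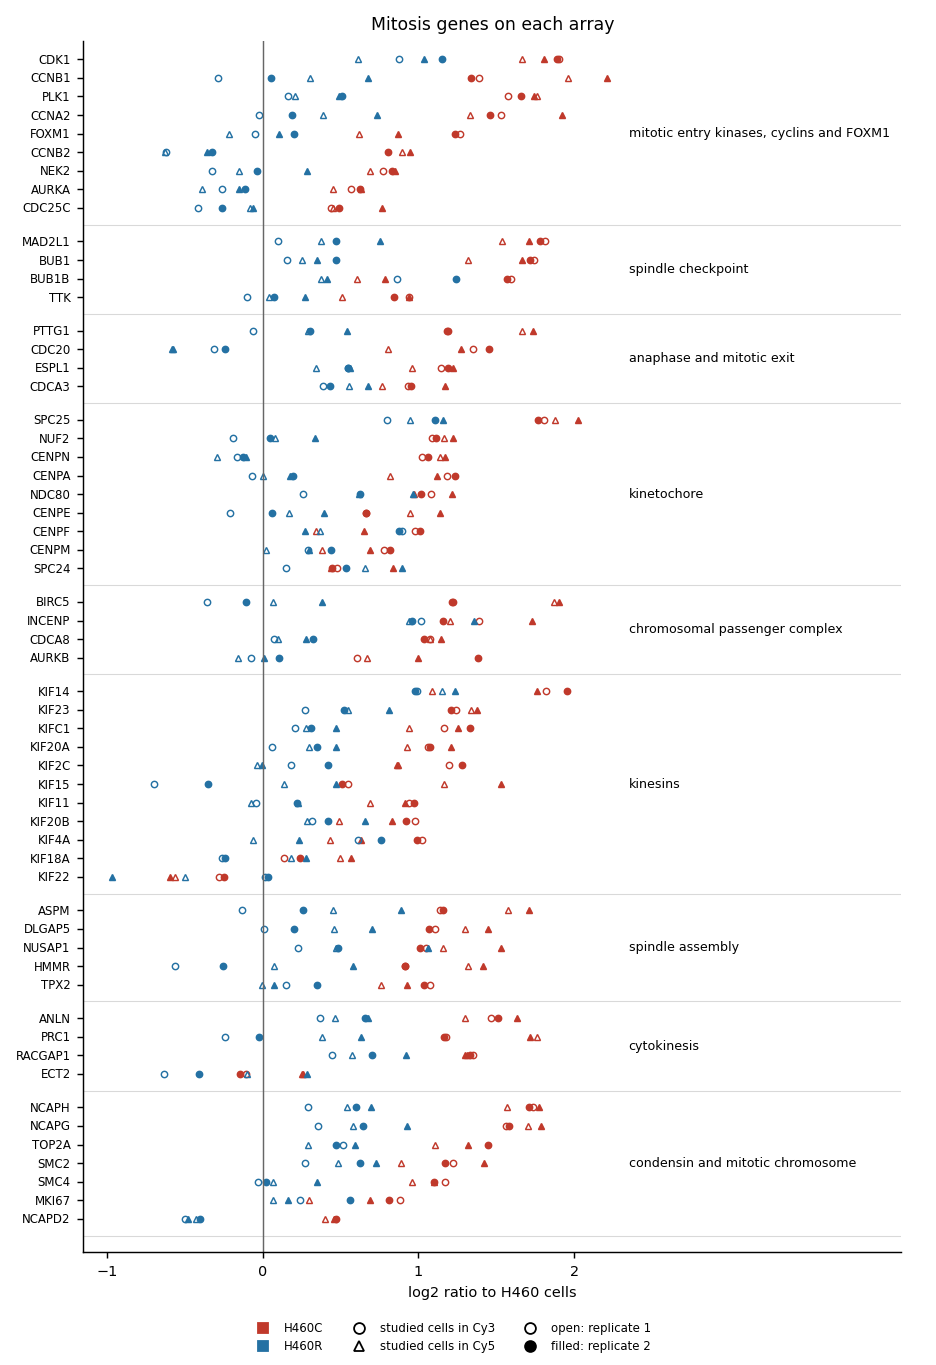
Log2 ratio to H460 cells (horizontal axis) of the 57 genes, in groups by role and ordered by their H460C mean, with 1 symbol per array: red for H460C, blue for H460R, circles for studied cells in Cy3, triangles for Cy5, open for replicate 1 and filled for replicate 2. The red symbols lie right of the blue ones for 44 of 57 genes, KIF22 is left of 0 on all H460C arrays, and ECT2 is near 0.

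H460C and H460R were then compared directly. Both are ratios to the same H460 RNA, which cancels in the difference. The median difference of the members was 0.85, and limma called 53 of 57 higher in H460C than in H460R and 0 lower, against 30.9% and 29.1% of all symbols. The uncalled genes were CENPF, SPC24, KIF22 and ECT2. On the single arrays, every H460C value lay above every H460R value for 44 of 57 genes, or 77.2%, and for 20.1% of all symbols. CDC20 and BIRC5, 2 of 57, passed a minimum difference of 1, against 1.65% of all symbols. Without H460R replicate 1 the number called higher was 43.

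**Figure D2:**
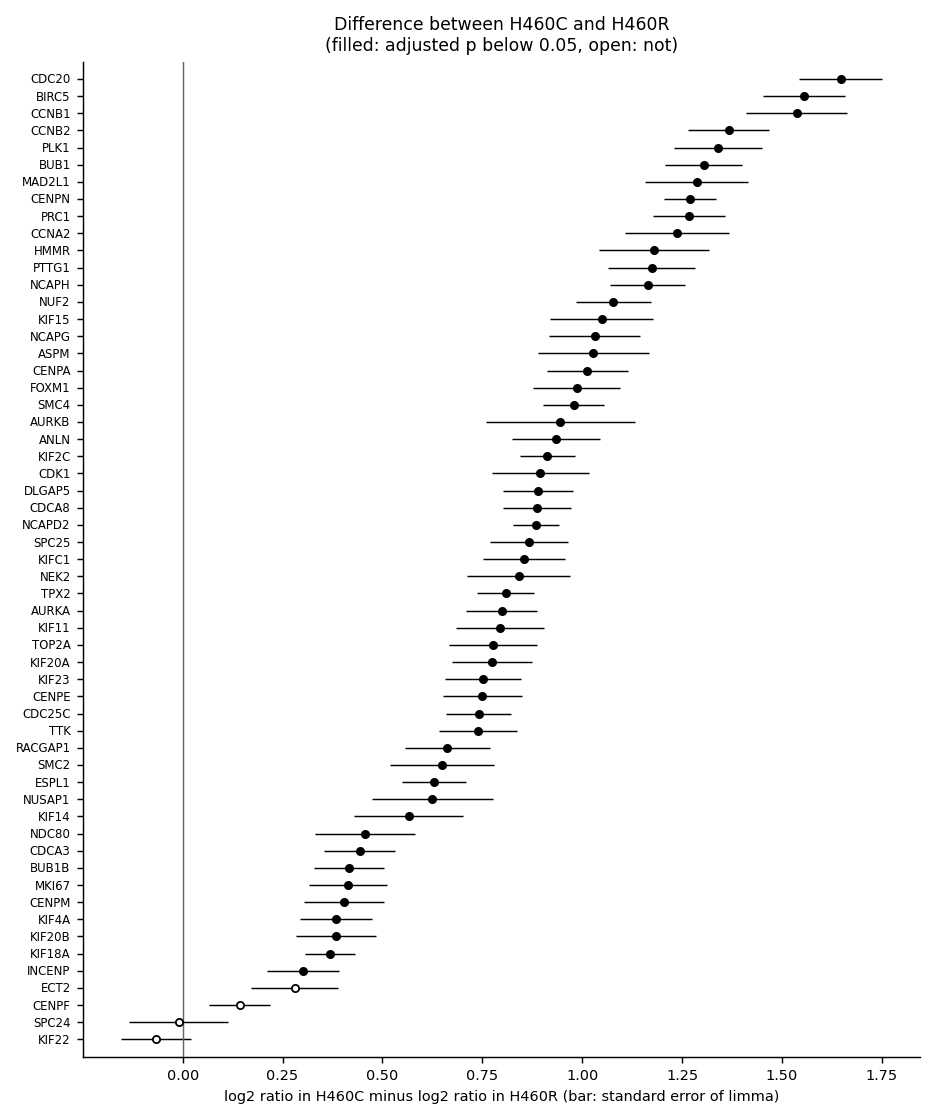
Log2 ratio in H460C minus that in H460R for each gene (horizontal axis), with the standard error of limma as a bar and filled symbols for an adjusted p below 0.05. The differences run from -0.07 for KIF22 to 1.65 for CDC20, and 53 of the 57 symbols are filled.

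The promoters of these genes share sequence features that played no part in the choice of the genes. RefSeq promoter windows (GRCh38.p14, 250 bases before to 50 bases after the transcription start) were found for 50 of the 58 genes, 60 windows in all. AURKA, FOXM1, TTK, UBE2C, CENPM, BIRC5, TPX2 and RACGAP1 were without a window. The letters TTTGAA, the cell cycle genes homology region (CHR) that MuvB complexes bind, occurred on either strand in 68.3% of the windows of the members and in 15.2% of all 35116 windows. CCAAT, the box bound by NF-Y, occurred in 73.3% of the windows and in 34.6% of all. Both were present in 53.3%, against 5.9% of all windows. TTCGAA, another form of the CHR, occurred in 6.67% against 1.45%. The E2F-type letters TTTCCCGC were found in 1.67% against 1.63%, and TTTGGCGC in 3.33% against 0.652%. None of these strings contains another, and a match is a description of letters, not of a bound site. The 54 matches of TTTGAA lay mostly close to the start, 38 of them beginning between positions -50 and 50, and 72 of the 91 matches of CCAAT began between positions -150 and -20 relative to it. The 38 measured genes with TTTGAA had a median ratio of 1.14 in H460C and 0.36 in H460R, and the 12 without it 1.06 and 0.23. The ranges of both sets overlapped, from 0.07 to 1.87 with TTTGAA and from -0.42 to 1.72 without it. The set without it still held KIF22, at its low end, and BUB1, which have the TTCGAA form. Some lists taken up below also held these letters. Further spindle and cytokinesis genes had TTTGAA in 71.4% of windows and both TTTGAA and CCAAT in 64.3%. The anaphase-promoting complex list had 16.7% and 3.33%. Genes of G1/S and DNA replication had CCAAT in 65.0%, but TTTGAA in 2.5%.

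**Figure D3:**
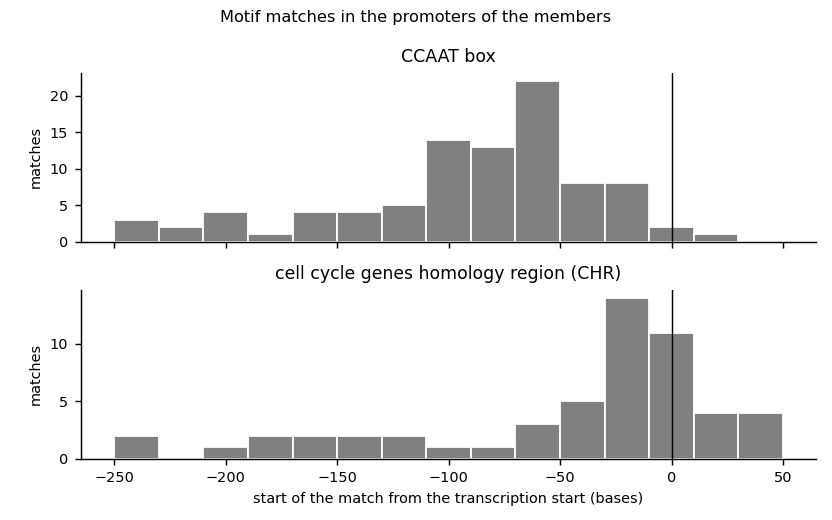
Number of matches (vertical axes) of the CCAAT box, upper panel, and of the CHR letters TTTGAA, lower panel, by the distance of their first base from the transcription start (horizontal axis, bases) in the promoters of the members. Of 91 CCAAT matches 72 begin between -150 and -20, and of 54 CHR matches 38 begin between -50 and 50.

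To show how these letters are arranged, the 150 bases before the start are given for 7 genes, 5′ to 3′ on the strand of the gene. They are the highest and the lowest member in H460C (SPC25 and KIF22), the gene with the largest difference between the populations (CDC20), both B-type cyclins, and PLK1 and PRC1. Capitals mark both forms of the CHR and the CCAAT box, on either strand. They lie at chr2:168890431-168890580 (SPC25, minus strand), chr1:43358831-43358980 (CDC20, plus), chr16:23678739-23678888 (PLK1, plus), chr15:59104996-59105145 (CCNB2, plus), chr5:69167000-69167149 (CCNB1, plus), chr15:90994536-90994685 (PRC1, minus) and chr16:29790601-29790750 (KIF22, plus).
SPC25: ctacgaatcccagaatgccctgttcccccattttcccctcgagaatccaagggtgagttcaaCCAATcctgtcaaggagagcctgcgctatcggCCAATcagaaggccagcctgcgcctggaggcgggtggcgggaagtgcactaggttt
CDC20: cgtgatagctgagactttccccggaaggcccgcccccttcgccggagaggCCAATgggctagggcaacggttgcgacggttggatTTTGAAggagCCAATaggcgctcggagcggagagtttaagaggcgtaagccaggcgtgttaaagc
PLK1: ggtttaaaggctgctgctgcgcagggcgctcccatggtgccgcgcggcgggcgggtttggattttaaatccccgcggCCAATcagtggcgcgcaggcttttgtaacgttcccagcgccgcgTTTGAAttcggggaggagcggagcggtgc
CCNB2: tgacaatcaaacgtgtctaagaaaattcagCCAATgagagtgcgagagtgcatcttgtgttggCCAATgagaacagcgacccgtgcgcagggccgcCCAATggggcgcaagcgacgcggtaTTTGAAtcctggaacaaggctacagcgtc
CCNB1: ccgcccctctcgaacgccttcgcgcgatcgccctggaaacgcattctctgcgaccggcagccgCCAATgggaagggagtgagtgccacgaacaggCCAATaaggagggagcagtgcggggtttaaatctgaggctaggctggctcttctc
PRC1: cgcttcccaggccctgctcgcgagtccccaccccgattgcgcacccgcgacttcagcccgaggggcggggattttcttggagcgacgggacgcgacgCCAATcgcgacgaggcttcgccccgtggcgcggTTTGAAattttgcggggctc
KIF22: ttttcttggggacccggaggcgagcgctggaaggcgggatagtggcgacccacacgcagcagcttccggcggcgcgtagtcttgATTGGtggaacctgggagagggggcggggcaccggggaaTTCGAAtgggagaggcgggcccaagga
CCNB2 and PLK1 show the CHR letters at position -29 and PRC1 at -20, each with a CCAAT box upstream of them. CDC20 has them between 2 CCAAT boxes. SPC25 and CCNB1 have 2 CCAAT boxes each in this stretch. CCNB1 had no TTTGAA in its window, and SPC25 had it at -247 and at -3, outside the printed stretch or running past its end. KIF22, the member below 0, had the TTCGAA form at -27 and a CCAAT box at -66 that reads on the opposite strand.

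Among the kinases and cyclins of mitotic entry, all 9 genes were above 0 in H460C and all were called higher than in H460R. Their median was 1.00 in H460C and 0.01 in H460R. CDK1, the kinase that starts mitosis, had the highest ratio of the group in both populations. CDK1 gave 1.90 and 1.66 on the arrays of H460C replicate 1 and 1.89 and 1.80 on those of replicate 2. In H460R its values were 0.87 and 0.61, then 1.15 and 1.03, and the populations did not overlap. Its mean was 1.81 (3.52-fold) in H460C and 0.92 ± 0.25 (n = 2) in H460R, a difference of 0.90 ± 0.12 (SE; limma adjusted p = 0.00252). CCNB1, the cyclin B1 partner of CDK1, showed 1.39 and 1.96, then 1.34 and 2.21, in H460C. Its H460R arrays were -0.29 and 0.30, then 0.05 and 0.68, on both sides of 0, and the difference was 1.54 ± 0.13 (adjusted p = 0.000526). The studied cells read higher in Cy5 than in Cy3 on all 4 pairs of arrays of this gene. CCNB2, which encodes cyclin B2, went in opposite directions: 0.90 on the 1 array that measured it in H460C replicate 1 and 0.81 and 0.95 in replicate 2, but -0.62 and -0.62, then -0.32 and -0.36, in H460R. Its H460R mean of -0.48 ± 0.20 (n = 2) was the lowest of all members, and limma called it lower there (adjusted p = 0.00251).

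In the rest of the group the H460C mean was also above the H460R mean for every gene. PLK1, the polo-like kinase of mitotic entry and spindle formation, gave 1.57 and 1.76, then 1.66 and 1.74, in H460C, and 0.17 and 0.21, then 0.51 and 0.49, in H460R. A second, dimmer probe of PLK1 gave means of 0.90 and 0.08, and it kept the limma calls in H460C and in the difference but not in H460R. CCNA2 (cyclin A2) had means of 1.56 and 0.32 ± 0.20. The transcription factor FOXM1 stood at 1.00 in H460C and 0.01 ± 0.20 in H460R, and the centrosome kinase NEK2 at 0.79 and -0.06 ± 0.26. The lowest ratios in H460C were those of AURKA, the spindle pole kinase, at 0.57 and of CDC25C, the phosphatase that activates CDK1, at 0.54. Both were called lower in H460R by limma, with means of -0.23 ± 0.14 and -0.20 ± 0.06, and both lost that call with median centring and without H460R replicate 1, CDC25C also without replicate 2 and with Cy5 arrays only.

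The 4 spindle checkpoint genes had a median of 1.38 in H460C and 0.37 in H460R. MAD2L1, whose protein binds and holds CDC20, gave 1.81 and 1.54, then 1.78 and 1.71, in H460C. It gave 0.10 and 0.38, then 0.47 and 0.75, in H460R, and the difference was 1.29 ± 0.13 (limma adjusted p = 0.000976). BUB1, a kinetochore kinase of the checkpoint, had means of 1.61 and 0.31 ± 0.14. TTK, the MPS1 kinase that starts checkpoint signalling, had the lowest ratio of the group, 0.81 in H460C and 0.07 ± 0.14 in H460R. BUB1B (BUBR1) was the exception in that H460R was also well above 0, at 0.72 ± 0.15, against 1.14 in H460C. Its arrays split by dye: in H460C they read 1.60 and 0.61, then 1.57 and 0.79, and in H460R 0.86 and 0.37, then 1.24 and 0.42, so that single arrays of the populations overlapped. The difference of 0.42 ± 0.09 was called with an adjusted p of 0.0115 and was lost with Cy5 arrays only and with median centring.

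For anaphase and mitotic exit 4 genes were measured, with medians of 1.17 and 0.38. CDC20, which activates the anaphase-promoting complex, showed the largest difference between the populations. Its H460C arrays were 1.35 and 0.80, then 1.45 and 1.28, and its H460R arrays were all below 0, at -0.31 and -0.58, then -0.24 and -0.58. The means were 1.22 and -0.43 ± 0.03 (n = 2), and the difference of 1.65 ± 0.10 (3.13-fold; limma adjusted p = 0.000259) passed the minimum difference of 1. PTTG1, the securin that restrains separase, gave means of 1.44 and 0.27 ± 0.22. ESPL1, the separase that cuts cohesin, gave 1.13 and 0.50 ± 0.08, and its second probe was not well above background in either population and was not tested. CDCA3, a trigger of mitotic entry, was the lowest in H460C at 0.96 and the highest in H460R at 0.51 ± 0.06, at the probe that was read. Its second probe gave 0.77 and 0.22, and limma did not call that probe in H460R.

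The 9 kinetochore genes had medians of 1.07 in H460C and 0.26 in H460R, and 7 were called higher in H460C than in H460R. SPC25 and SPC24 encode partner subunits of the NDC80 complex and had unlike ratios. SPC25 had the highest ratio of all members in H460C, 1.81 and 1.87, then 1.77 and 2.03, and gave 0.80 and 0.95, then 1.11 and 1.16, in H460R. SPC24 read 0.48 and 0.44, then 0.44 and 0.83, in H460C. In H460R it read 0.15 and 0.66, then 0.53 and 0.89, a range that reached past that of H460C at both ends. The difference of SPC24 was -0.01 ± 0.12 (limma adjusted p = 0.952). The other subunits, NDC80 and NUF2, had means of 1.07 and 1.15 in H460C, but 0.62 ± 0.25 and 0.07 ± 0.18 in H460R. The second probe of NDC80 gave 0.54 and 0.37, a difference of 0.18 that was not called.

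Of the centromere proteins, CENPN, which links centromeric nucleosomes to the kinetochore, had the largest difference of the group. Its arrays were between 1.02 and 1.17 in H460C and between -0.29 and -0.10 in H460R, a difference of 1.27 ± 0.07 (limma adjusted p = 0.000157), and its second probe gave 1.25. CENPA, the histone H3 variant of centromeres, had means of 1.09 and 0.08 ± 0.15, and the motor CENPE 0.85 and 0.10 ± 0.17. CENPM stood at 0.67 and 0.26 ± 0.15. CENPF, a large protein of the outer kinetochore, was uncalled in the comparison of the populations: 0.98 and 0.34, then 1.01 and 0.65, in H460C, and 0.89 and 0.37, then 0.88 and 0.27, in H460R. This probe was not the brightest for CENPF. The brightest one was missing on both arrays of H460C replicate 1 and could not be tested. It gave 1.22 in H460C replicate 2 and a mean of 0.52 in H460R.

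The chromosomal passenger complex, which corrects faulty attachments and acts again in cytokinesis, has 4 subunits, all called higher in H460C than in H460R, with medians of 1.23 and 0.10. BIRC5 (survivin) had the largest difference and INCENP the smallest. BIRC5 read 1.22 and 1.87, then 1.22 and 1.90, in H460C, and -0.36 and 0.07, then -0.11 and 0.38, in H460R. Its difference of 1.56 ± 0.10 (limma adjusted p = 0.00029) was the second largest of the members. INCENP, the scaffold subunit, was high in both: 1.39 and 1.20, then 1.16 and 1.73, against 1.02 and 0.94, then 0.96 and 1.36. Its difference was 0.30 ± 0.09 (adjusted p = 0.0366), and it was no longer called with the H460C samples averaged into 1 or without H460R replicate 1. AURKB, the kinase of the complex, had means of 0.92 and -0.03 ± 0.12, and the difference of 0.95 was not called without either H460R replicate. Its H460C arrays were the most spread of the complex between samples, at 0.61 and 0.67 in replicate 1 and 1.39 and 1.00 in replicate 2. CDCA8 (borealin) was at 1.08 and 0.20 ± 0.15.

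Of the 11 kinesins, motor proteins that move along microtubules, 10 were called higher in H460C by limma, and the medians were 0.94 and 0.29. KIF14, which acts in cytokinesis, had the highest mean of the group in both populations. It read 1.82 and 1.09, then 1.95 and 1.76, in H460C and 0.99 and 1.15, then 0.98 and 1.24, in H460R, so that 1 H460C array fell within the range of H460R. Its H460R mean of 1.09 ± 0.03 was the highest of all members there. The difference of 0.57 ± 0.14 (limma adjusted p = 0.0181) was not called without either H460R replicate. KIF22, a chromosome-arm motor also called KID, was the only member that limma called lower in both populations, and it lost both calls with median centring, at -0.26 and -0.23. It read -0.28 and -0.56, then -0.24 and -0.59, in H460C. In H460R it split by dye, with 0.01 and 0.03 in Cy3 and -0.49 and -0.96 in Cy5. The difference between the populations was -0.07 ± 0.09 (adjusted p = 0.559), and with Cy3 arrays only KIF22 was called lower in H460C than in H460R.

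The other kinesins ranged from 0.36 for KIF18A, which dampens chromosome movement, to 1.29 for KIF23, the MKLP1 motor of the central spindle, in H460C. KIF15, a spindle motor that assists KIF11, had the largest difference of the group, 1.05 ± 0.13, with means of 0.94 and -0.11 ± 0.24. Its arrays also split by dye: 0.55 and 1.17, then 0.51 and 1.53, against -0.70 and 0.13, then -0.35 and 0.47. KIF11, the Eg5 motor that separates spindle poles, had means of 0.88 and 0.08 ± 0.20. KIF2C (MCAK), which depolymerizes microtubules at centromeres, had 1.05 and 0.14 ± 0.10. KIF20A of the cleavage furrow had 1.07 and 0.29 ± 0.16, and the minus-end motor KIFC1 had 1.17 and 0.32 ± 0.11. KIF4A and KIF20B had the smallest differences among the kinesins called, with KIF18A, between 0.37 and 0.38.

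The 5 genes of spindle assembly had medians of 1.19 and 0.34, and all were called higher in H460C than in H460R. ASPM, a protein of spindle poles, had the highest mean in H460C, 1.40, with 1.14 and 1.58, then 1.16 and 1.71, on its arrays. Its H460R arrays ran from -0.13 to 0.89, and the mean was 0.37 ± 0.29. A second probe of ASPM gave 1.71 and 0.71, with nearly the same difference (1.00 against 1.03). HMMR, which binds hyaluronan and spindle microtubules, had the largest difference of the group, 1.18 ± 0.14 (limma adjusted p = 0.00152), and its H460R arrays lay between -0.56 and 0.58. NUSAP1 had the highest H460R mean of the group, 0.56 ± 0.30, and the widest SD of all members. TPX2, the activator of AURKA, was lowest in H460C at 0.95, and DLGAP5 stood at 1.23 and 0.34 ± 0.15.

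In cytokinesis, ANLN, PRC1 and RACGAP1 were called higher in H460C than in H460R and ECT2 was not, and the medians of the 4 genes were 1.39 and 0.36. PRC1, which bundles microtubules of the midzone, gave 1.18 and 1.76, then 1.16 and 1.72, in H460C and -0.24 and 0.38, then -0.02 and 0.63, in H460R. The difference was 1.27 ± 0.09 (limma adjusted p = 0.000356). ANLN (anillin), the scaffold of the contractile ring, had means of 1.48 and 0.54 ± 0.18, and RACGAP1, a subunit of centralspindlin, 1.32 and 0.66 ± 0.21. ECT2, the exchange factor for RhoA that centralspindlin recruits, read -0.11 and 0.25, then -0.14 and 0.26, in H460C. In H460R it read -0.63 and -0.10, then -0.40 and 0.28. Its difference of 0.28 ± 0.11 was not called (adjusted p = 0.0773). The other probes of ECT2 gave 0.25 and 0.20 in H460C and differences of 0.31 and 0.22, which were called with adjusted p = 0.0222 and 0.0356.

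Condensin and mitotic chromosome genes had medians of 1.18 and 0.47, and all 7 were called higher in H460C than in H460R. The subunits of condensin I had unequal ratios. NCAPH, the kleisin that closes the ring, gave 1.73 and 1.57, then 1.71 and 1.78, in H460C and 0.29 and 0.54, then 0.60 and 0.69, in H460R. NCAPG, a HEAT-repeat subunit, was close to it with means of 1.66 and 0.63 ± 0.22. NCAPD2, the other HEAT-repeat subunit, had only 0.40 on the 1 array that measured it in H460C replicate 1 and 0.47 and 0.46 in replicate 2. Its H460R arrays were all below 0, at -0.50 and -0.43, then -0.40 and -0.48, and limma called it lower there (adjusted p = 0.000411), though not with median centring. The ATPase subunits SMC2 and SMC4, shared by both condensins, had similar means in H460C, 1.18 and 1.08, but 0.53 ± 0.21 and 0.10 ± 0.12 in H460R. TOP2A, the topoisomerase that untangles chromatids, stood at 1.25 and 0.47 ± 0.09, with 1 array for H460C replicate 1. MKI67, which encodes the proliferation marker Ki-67 that coats mitotic chromosomes, was among the lower members, at 0.67 and 0.26 ± 0.15.

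A split between dyes ran through many of these genes and is seen in the arrays given above. Over the members, the median of the H460C arrays was 1.12 (54 members) and 1.11 in Cy3 and 0.96 and 1.22 in Cy5. That of the H460R arrays was 0.08 and 0.32 in Cy3 and 0.25 and 0.47 in Cy5. With the arrays of 1 dye orientation, limma called 41 members higher in H460C than in H460R from Cy5 and 51 from Cy3. All 4 H460C medians remained above all 4 H460R medians.

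Other genes of mitosis, from lists set up beside the members, gave the setting for these values. Over all symbols limma called 37.5% higher and 35.5% lower in H460C, and 36% higher and 33.6% lower in H460R. Of 94 other mitosis genes tested, it called 72 higher and 6 lower in H460C, and 47 higher and 18 lower in H460R. Their medians were 0.61 and 0.20, below those of the members. By list, the medians in H460C ran from 0.19 to 1.09. The anaphase-promoting complex with its regulators, 17 genes, had medians of 0.19 and 0.02. In this list limma called 10 genes higher and 3 lower in H460C, and 5 higher and 4 lower in H460R. The core subunits ANAPC4, ANAPC5, ANAPC11 and ANAPC13 were called higher in both populations, and CDC16, CDC27 and ANAPC16 lower in both. In that list the genes farthest above 0 in H460C were UBE2S, the E2 enzyme that extends ubiquitin chains, at 0.99, and the inhibitor FBXO5 (EMI1) at 0.69. Cohesin and its regulators, 14 genes, had medians of 0.37 and 0.09. The subunits SMC3 and RAD21 gave 0.04 and -0.01 in H460C, and SMC1A gave 0.55. In H460R limma called SMC3 lower at -0.48 ± 0.03 and RAD21 at -0.53 ± 0.07, and SMC1A was uncalled at -0.14 ± 0.06. The alternative subunits STAG1 and STAG2 gave 0.12 and 1.16 in H460C. STAG2 split by dye, with 2.15 and 2.03 in Cy3 but 0.23 and 0.23 in Cy5 on its H460C arrays. Of the regulators, CDCA5 (sororin) gave 1.92, PDS5B gave 1.56 and the shugoshins SGO1 and SGO2 gave 1.18 and 1.38. Further kinetochore and checkpoint genes, 28 in number, had medians of 0.65 and 0.32, led by CENPW at 2.12 and OIP5, a CENPA loading factor, at 1.95. Further genes of spindle and cytokinesis, 16 in number, had 1.09 and 0.41, close to the members.

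Genes of mitotic entry and of the MuvB complexes had medians of 0.78 and 0.13 over 16 genes. CKS2, a small subunit that binds CDK1, was the only gene among the other mitosis lists that Rank Products called, at 2.71 in H460C (FDR = 0.0227) and 1.19 ± 0.38 in H460R. LIN9, a MuvB core subunit, stood at 1.49 and 0.03 ± 0.14, and MYBL2 (B-MYB) at 1.15 and 0.15 ± 0.11. The core subunits LIN37, LIN54 and RBBP4 gave 0.20, 0.08 and -0.35 in H460C. The 3 tested subunits of condensin II had medians of 0.51 and 0.08, below the median of 1.18 for the condensin and chromosome members.

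**Figure D4:**
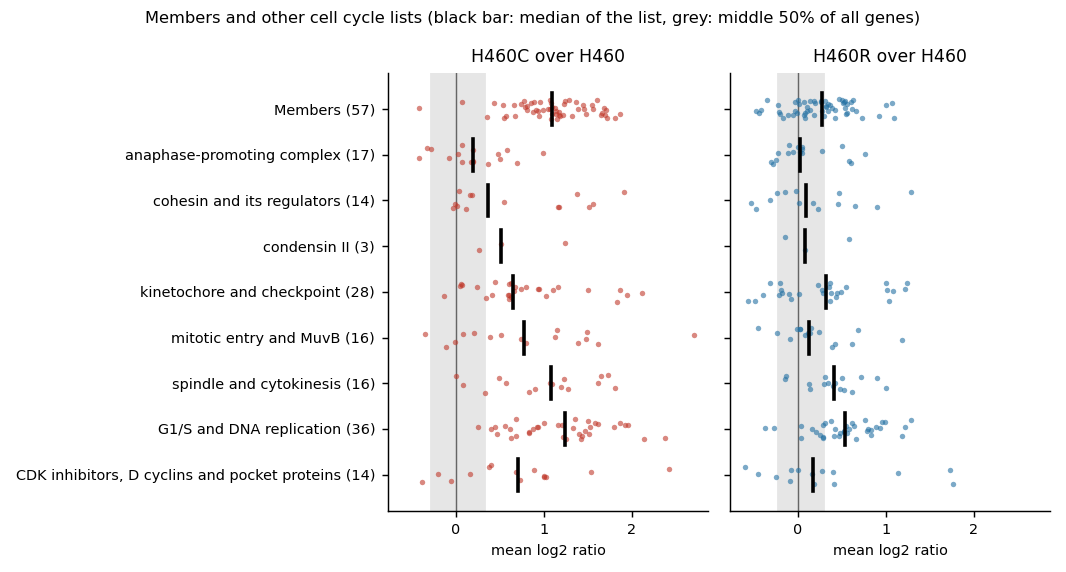
Mean log2 ratio to H460 cells (horizontal axes) of every tested gene of the members and of 8 other cell cycle lists, for H460C (left) and H460R (right), with the median of each list as a black bar and the middle 50% of all 12374 symbols in grey. The members' median is 1.10 in H460C and 0.27 in H460R, the anaphase-promoting complex lies at 0.19 and 0.02, and the replication list at 1.24 and 0.54.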

How the data were processed

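RNA of H460C and H460R cells (2 samples each, 2 dye-swapped arrays per sample) was hybridized against H460 RNA. The authors read the 8 arrays with the Feature Extraction software. Their deposited median intensity per spot and per local background, without normalization, was used in place of the mean intensity that had been planned. The deposited log10 ratio, corrected and dye-normalized by that software, and the authors' value table of log2 ratios served as alternatives. The background correction and normalization behind that table are not given in the sources used here. On 1 array the log10 ratios had lost their decimal point and were divided by 10 to the power of 9. Columns without a sample numbered 0.

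The normexp model (limma, offset 50) removed background, loess normalized the ratios, 43376 spots were averaged into 41000 probes, and paired dye-swap arrays were averaged. Spots marked as outliers were left out. Probes with at least 0.5 of their spots well above background in every channel of a population were kept (26046, of which 26014 had all ratios). Symbols came from the RefSeq gene table of GRCh38.p14 (23958 probes matched). Each population was tested against 0 with Rank Products (exact distribution of the product of 2 ranks, FDR 0.05) and, as an alternative, with limma. The populations were compared with limma on 4 ratios (2 residual and 3.27 prior degrees of freedom). p-values were two-sided for limma and adjusted by Benjamini-Hochberg over all probes. Scripts were tested on simulated data. Software was limma 3.58.1 in R 4.3.3, with tables read by the data.table package, version 1.17.8. The number of arrays limits the precision.

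The members and the lists were chosen with earlier results of these data known. Values were given for the highest and lowest members of each role and population, for those over 1, for the largest and smallest differences, for those whose probes disagreed and for the other members by role. The alternatives changed the background correction, normalization, filter on dim probes, dye orientation, probe, test, replicates and pairing.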

Additional observations from a re-analysis of the deposited data

Results flagged for a closer look

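The ratio to H460 cells differed between H460C and H460R for 53 of 57 members in the direct comparison with limma, and H460C was the higher population for each of them. Values are log2 ratios in H460C minus those in H460R. Among the genes of mitotic entry the difference was 1.54 for CCNB1, 1.37 for CCNB2, 1.34 for PLK1, 1.24 for CCNA2, 0.99 for FOXM1, 0.90 for CDK1, 0.84 for NEK2, 0.80 for AURKA and 0.74 for CDC25C. In the spindle checkpoint it was 1.30 for BUB1, 1.29 for MAD2L1, 0.74 for TTK and 0.42 for BUB1B. For anaphase and exit the differences were 1.65 for CDC20, 1.17 for PTTG1, 0.63 for ESPL1 and 0.44 for CDCA3. Kinetochore genes differed by 1.27 for CENPN, 1.08 for NUF2, 1.01 for CENPA, 0.87 for SPC25, 0.75 for CENPE, 0.46 for NDC80 and 0.40 for CENPM. In the chromosomal passenger complex the values were 1.56 for BIRC5, 0.95 for AURKB, 0.89 for CDCA8 and 0.30 for INCENP. Among the kinesins they were 1.05 for KIF15, 0.91 for KIF2C, 0.85 for KIFC1, 0.79 for KIF11, 0.77 for KIF20A, 0.75 for KIF23, 0.57 for KIF14, 0.38 for KIF4A, 0.38 for KIF20B and 0.37 for KIF18A. Spindle assembly genes differed by 1.18 for HMMR, 1.03 for ASPM, 0.89 for DLGAP5, 0.81 for TPX2 and 0.62 for NUSAP1. The cytokinesis genes gave 1.27 for PRC1, 0.94 for ANLN and 0.66 for RACGAP1. Condensin and chromosome genes gave 1.16 for NCAPH, 1.03 for NCAPG, 0.98 for SMC4, 0.88 for NCAPD2, 0.78 for TOP2A, 0.65 for SMC2 and 0.41 for MKI67. Medium, attachment and slide differed between the populations as well and cannot be told apart from these differences.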

How the results depend on the processing

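No member changed the direction of a call under any alternative that was run, and Rank Products called 0 members in both populations under every one that allows it. Leaving out a replicate leaves Rank Products 1 ratio, which it cannot test, so limma was used there, which assumes that the lone sample varies like those of the other population. With a minimum log2 ratio of 1, limma called 15 higher and 0 lower in H460C and 0 in either direction in H460R, and with a minimum difference of 1 it called 2 higher in H460C than in H460R. The median of the members in H460C was 1.25 with the ratio computed by Feature Extraction and 1.26 with median centring, which also moved the median of all symbols to 0.10 in H460C and 0.07 in H460R. Under median centring limma called 0 lower in H460C and 1 lower in H460R. With Cy3 arrays only, 1 member (KIF22) was called lower in H460C than in H460R. The same arrays gave lower calls in H460R for BIRC5, ECT2, HMMR, KIF15 and KIF18A, which were uncalled there with all arrays. Leaving out 1 H460R replicate gave 21 to 39 members higher and 3 to 7 lower in H460R by limma. The number higher in H460C than in H460R was 43 to 53 without 1 sample, 41 with Cy5 arrays only, 44 with median centring, 48 with a normexp offset of 0, 52 with the H460C samples averaged into 1, and 53 with the authors' value table. With the replicate block it was 54. The deviations of same-numbered samples correlated by 0.21, and the labels give the numbers no meaning beyond a name. INCENP and NDC80 lost that call under 7 of 18 alternatives each, KIF20B under 6, and KIF14, CENPM and MKI67 under 5. The cause was not tested. The 2 samples per population and their 8 arrays limit what could be detected.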

Other observations

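Genes of the earlier part of the cell cycle were measured on the same arrays. Of 36 genes of the G1/S transition and of DNA replication, limma called 36 higher in H460C and 32 higher and 2 lower in H460R. The shares over all symbols were 37.5% higher in H460C, and 36% higher and 33.6% lower in H460R. Median log2 ratios of the 36 genes were 1.24 and 0.54. CDC45, a subunit of the replicative helicase, was called by Rank Products in H460C at 2.38 (FDR = 0.0399) and stood at 0.93 ± 0.27 (n = 2) in H460R. PCNA, the sliding clamp, was at 1.62 in H460C and 1.29 ± 0.04 in H460R, a difference of 0.33 that limma called. MCM7, a helicase subunit, was at 1.87 and 0.53 ± 0.15. CDT1, which licenses origins, was called lower in H460R at -0.38 ± 0.12 and higher in H460C at 0.45.

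Among genes that restrain the cycle, CDKN1A, the p21 inhibitor, was called higher in H460R by Rank Products at 1.73 ± 0.05 (FDR = 0.0431) and was at 0.89 in H460C, where Rank Products did not call it. limma called the difference of -0.84 ± 0.06. CDKN1C, the p57 inhibitor, went in opposite directions, with 1.02 in H460C and -0.46 ± 0.04 in H460R. The repressor E2F7 was called by Rank Products in both populations, at 2.42 in H460C (FDR = 0.0398) and 1.77 ± 0.34 in H460R (FDR = 0.0369). CCND1 (cyclin D1) was higher in H460R, at 1.14 ± 0.00, than in H460C, at 0.73, and limma called that difference.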
